A study of Arabidopsis thaliana with 18 samples.

Results

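The beta-glucosidases described here are BGLU15, BGLU25, BGLU40, BGLU42, BGLU44 and PYK10, 6 enzymes of glycoside hydrolase family 1, each measured by 1 probe set of 22746 on an Affymetrix Arabidopsis array. They were the probe sets whose annotated gene symbol was one of these 6 names. The series measured total RNA from whole Arabidopsis thaliana seedlings of 3 genotypes, each grown at 16 °C and at 23 °C, to ask what the clock protein ELF3 and the flowering repressor TFL1 contribute to the response of plants to growth temperature. The genotypes were wild-type Columbia (WT) and the mutants elf3-7 and tfl1-1, so each gene is represented by a single mutant allele. All seedlings had 3 days of cold stratification on salt agar and 10 days of growth under continuous light. Each of the 6 groups held 3 biological replicates (A, B and C) with RNA prepared separately for each, 18 arrays in all. The annotation used here names no probe set for ELF3 or TFL1, which left the mutant labels without a check on the mutated genes. Whole seedlings hold roots and shoots, and in such samples fewer cells of a type and less RNA per cell cannot be told apart.

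Enzymes of this family release glucose, or in some members mannose, from beta-linked glycosides. Plants use them to activate stored defence compounds, to free coumarins, monolignols and hormones from their sugar conjugates, and to turn over cell wall sugars. PYK10 (also called BGLU23) is the main protein of the ER bodies of Arabidopsis roots and seedlings. ER bodies are spindle-shaped compartments of the endoplasmic reticulum, and PYK10 meets its glucosinolate and coumarin glucoside substrates when cells are damaged.

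The members lie on 4 chromosomes: BGLU40 (AT1G26560) on chromosome 1, BGLU15 (AT2G44450) on 2, BGLU25 (AT3G03640), PYK10 (AT3G09260) and BGLU44 (AT3G18080) on 3, and BGLU42 (AT5G36890) on 5. In gene order, BGLU15 stood directly beside BGLU28, with BGLU29, BGLU17 and PEN2 within the next few genes, and BGLU44 stood directly beside BGLU43. The other 4 members had no family gene close by. Values are the deposited log2 RMA expression values, on which a difference of 1 is a doubling of signal. RMA values of different probe sets share no common scale of abundance, so each probe set is compared only with itself across arrays. Within the range of the array, PYK10 was brighter than 99.4% of probe sets by its mean over 18 arrays, BGLU44 than 94.8%, BGLU40 than 78.9%, BGLU42 than 72.2%, BGLU25 than 66.5% and BGLU15 than 53.6%.

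The choice of members rested on the temperature comparisons. Among the 22 family genes with a named probe set, the 5 BGLU members were the ones called (adjusted p under 0.05 over all probe sets, limma with Benjamini-Hochberg adjustment) at 23 °C against 16 °C in at least 1 genotype. PYK10 was not called and had entered the earlier work as a gene of roots. The temperature values below are therefore a description and carry no test for the members. At the threshold, BGLU40 lay just inside with a lowest adjusted p of 0.0383, in tfl1-1, and the nearest family gene outside, apart from PYK10, was BGLU28 with 0.162, in WT. In WT, 2 of the 6 members were called, BGLU15 and BGLU25, where 6.81% of all probe sets were called. The same 2 were called in elf3-7, where 4.87% of all probe sets were, and 5 were called in tfl1-1, where 9.16% were. Since the members were chosen on these calls, nothing follows from their share.

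The arrays differed in one way that bears on the values. The spiked Bacillus control probe sets averaged between 4.61 and 6.26 on the 6 replicate C arrays and between 3.11 and 3.24 on the 12 replicate A and B arrays, and 26.3% of probe sets differed between C and the others. Among the members, BGLU40 was 0.40 higher in C after its group means were removed (limma, adjusted p = 0.00197), and the other 5 gave adjusted p-values between 0.253 and 0.910. Values within A and B and within C are therefore given beside the pooled ones. Arrays of a group correlated at 0.954 to 0.996 over all probe sets, and the lowest value was in tfl1-1 at 23 °C.

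BGLU15, which in Arabidopsis hydrolyses flavonol 3-O-glucoside-7-O-rhamnosides, stood lower at 23 °C by more than any other member. In WT it read 6.81, 6.89 and 7.29 on the A, B and C arrays at 16 °C, and 4.16, 4.84 and 5.02 at 23 °C. In elf3-7 it read 7.10, 7.43 and 7.01 at 16 °C and 5.10, 5.97 and 4.91 at 23 °C. In tfl1-1 it read 6.73, 6.29 and 6.92 at 16 °C and 3.59, 4.17 and 5.87 at 23 °C. All 9 arrays at 16 °C lay above all 9 at 23 °C, and the C array of tfl1-1 at 23 °C stood far above its 2 companions. The difference, 23 °C minus 16 °C, was -2.32 in WT, -1.85 in elf3-7 and -2.10 in tfl1-1, each with a standard error (SE) of 0.45 and 3 arrays in each group. These are 5.01-fold, 3.62-fold and 4.29-fold lower signals at the warmer temperature. In tfl1-1 the difference was -2.63 within replicates A and B and -1.05 within replicate C, whereas in WT both came close together, at -2.35 and -2.27. Without the C array of tfl1-1 at 23 °C the pooled value in tfl1-1 was -2.76.

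**Figure D1:**
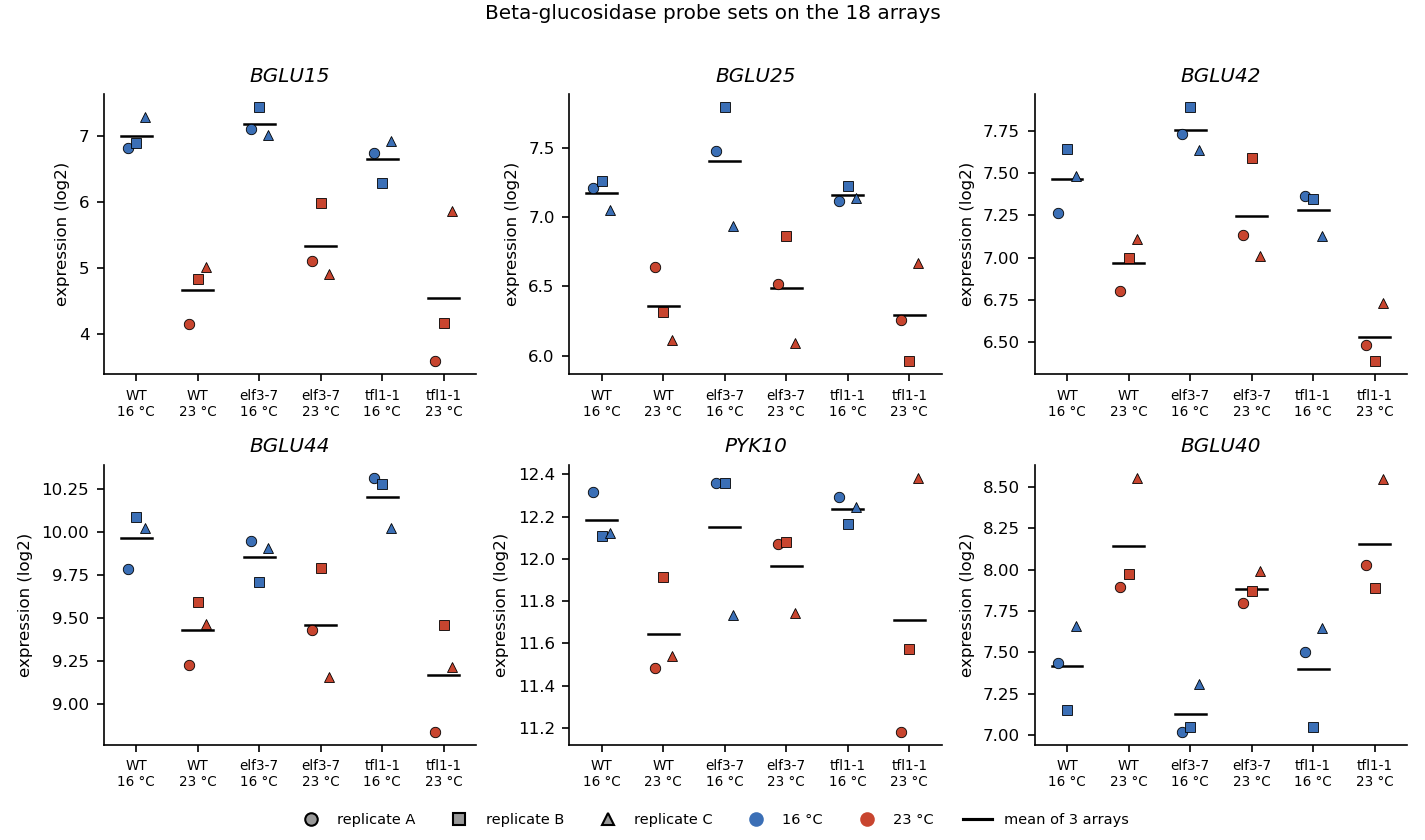
Log2 expression (vertical axes, each with its own range) of the 6 beta-glucosidase probe sets on each of the 18 arrays, by genotype and temperature. Circles, squares and triangles are replicates A, B and C, blue is 16 °C, red is 23 °C, and bars are means of 3 arrays. BGLU15, BGLU25 and BGLU40, which were chosen on the temperature comparisons, separate by temperature over all 18 arrays. The share of all probe sets that separate so was not counted. The C array of tfl1-1 at 23 °C stands high for BGLU15 (5.87) and PYK10 (12.39).

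BGLU25 had the same direction with a smaller difference. Its WT arrays A, B and C read 7.21, 7.26 and 7.05 at 16 °C and 6.64, 6.31 and 6.12 at 23 °C. Its elf3-7 arrays read 7.48, 7.79 and 6.93 at 16 °C and 6.52, 6.86 and 6.09 at 23 °C. Its tfl1-1 arrays read 7.11, 7.22 and 7.14 at 16 °C and 6.25, 5.96 and 6.67 at 23 °C. Every array at 16 °C lay above every array at 23 °C, across genotypes as well as within them, with the closest pair being the C array of elf3-7 at 16 °C and the B array of elf3-7 at 23 °C. The 3 genotypes gave nearly one value: -0.82 in WT, -0.91 in elf3-7 and -0.86 in tfl1-1 (SE 0.23 each), or 1.76-fold, 1.88-fold and 1.82-fold lower at 23 °C. In tfl1-1, replicate C gave -0.47 and replicates A and B gave -1.06.

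BGLU42 is known from Arabidopsis roots, where it acts downstream of the transcription factor MYB72 in the release of coumarins from their glucosides and in induced systemic resistance. In WT the A, B and C arrays read 7.27, 7.64 and 7.48 at 16 °C and 6.80, 7.00 and 7.11 at 23 °C. In elf3-7 they read 7.73, 7.89 and 7.64 at 16 °C and 7.13, 7.59 and 7.01 at 23 °C. In tfl1-1 they read 7.37, 7.35 and 7.13 at 16 °C and 6.48, 6.39 and 6.73 at 23 °C. Within each genotype the warm arrays lay below the cool ones, but genotypes overlapped: the B array of elf3-7 at 23 °C was higher than 5 of the 9 arrays grown at 16 °C. The differences were -0.49 in WT, -0.51 in elf3-7 and -0.75 in tfl1-1 (SE 0.15 each), or 1.41-fold, 1.43-fold and 1.68-fold lower at 23 °C. The 3 arrays of tfl1-1 at 23 °C formed the lowest group of all, with a mean of 6.53 ± 0.18 (SD, n = 3).

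BGLU44 has beta-mannosidase activity and acts on short mannan chains, sugars of the cell wall. It read 9.79, 10.09 and 10.02 in WT at 16 °C (A, B and C) and 9.23, 9.59 and 9.47 at 23 °C. In elf3-7 the 16 °C arrays read 9.95, 9.71 and 9.91 and the 23 °C arrays 9.43, 9.79 and 9.16. In tfl1-1 the 16 °C arrays read 10.32, 10.28 and 10.03 and the 23 °C arrays 8.84, 9.46 and 9.21. The groups did not overlap in WT and tfl1-1, whereas in elf3-7 the B array at 23 °C lay above the B array at 16 °C. The difference was -0.54 in WT, -0.39 in elf3-7 and -1.04 in tfl1-1 (SE 0.18 each), or 1.45-fold, 1.32-fold and 2.05-fold lower at 23 °C. It was below 0 within replicates A and B and within C in all 3 genotypes. The smallest of these 6 values, -0.22, came from A and B of elf3-7.

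PYK10, the ER body glucosidase, was very bright on every array and differed less clearly with temperature than the other members. In WT the A, B and C arrays read 12.32, 12.11 and 12.12 at 16 °C and 11.48, 11.92 and 11.54 at 23 °C. In elf3-7 they read 12.36, 12.36 and 11.74 at 16 °C and 12.07, 12.08 and 11.74 at 23 °C. In tfl1-1 they read 12.29, 12.17 and 12.25 at 16 °C and 11.18, 11.57 and 12.39 at 23 °C. The temperatures separated in WT only, and the highest of all 18 values was that of the C array of tfl1-1 grown at 23 °C. The differences were -0.54 in WT, -0.19 in elf3-7 and -0.52 in tfl1-1 (SE 0.24 each), or 1.45-fold, 1.14-fold and 1.44-fold lower at 23 °C. Within replicate C the difference was -0.58 in WT, 0.01 in elf3-7 and 0.14 in tfl1-1, so the direction did not hold in C for the mutants. Within A and B it was -0.52 in WT, -0.28 in elf3-7 and -0.85 in tfl1-1. Leaving out the C array of tfl1-1 at 23 °C gave -0.86 in tfl1-1, and PYK10 then passed the call threshold there. That fit called 19.1% of all probe sets in tfl1-1, against 9.16% in the main fit.

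BGLU40 was the 1 member that stood higher at 23 °C. In WT it read 7.44, 7.15 and 7.66 at 16 °C on the A, B and C arrays and 7.89, 7.97 and 8.56 at 23 °C. In elf3-7 it read 7.02, 7.05 and 7.31 at 16 °C and 7.79, 7.87 and 7.99 at 23 °C. In tfl1-1 it read 7.50, 7.05 and 7.65 at 16 °C and 8.03, 7.89 and 8.55 at 23 °C. All 9 arrays at 23 °C lay above all 9 at 16 °C, and the C array was the highest of its group in all 6 groups. The difference was 0.73 in WT, 0.76 in elf3-7 and 0.76 in tfl1-1 (SE 0.21 each), or 1.65-fold, 1.69-fold and 1.69-fold higher at 23 °C. The values within A and B, from 0.64 to 0.80, and within C, from 0.68 to 0.90, were of similar size.

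**Figure D2:**
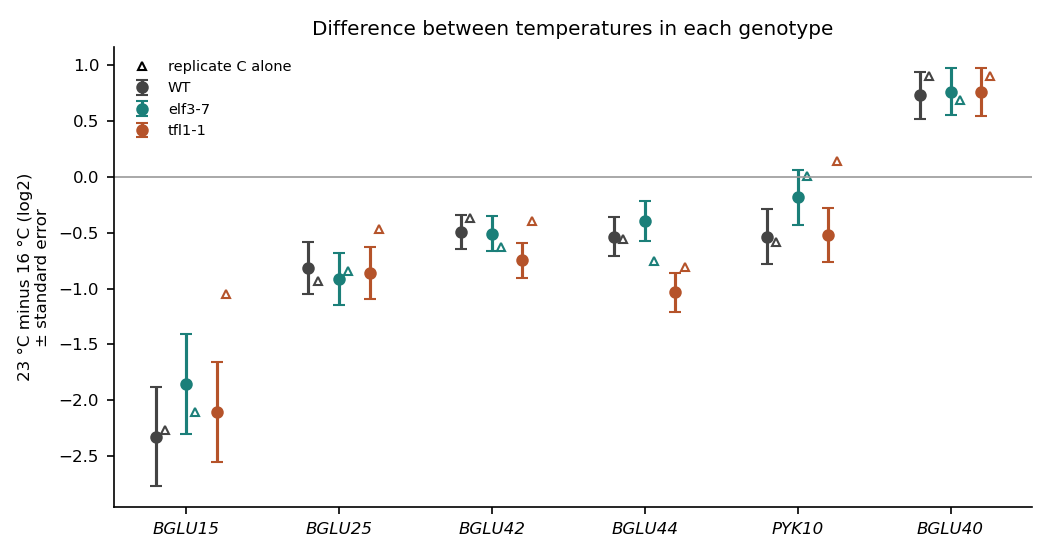
Difference between 23 °C and 16 °C (log2, vertical axis) for each member in WT, elf3-7 and tfl1-1. Filled circles with bars are the fitted difference ± SE over 3 arrays in each group, and open triangles are the difference within replicate C alone. BGLU15 lies lowest (-2.32 in WT), BGLU40 lies above 0 in all 3 genotypes, and the triangles of tfl1-1 lie above the circles for all 6 members.

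Counted over the members, 4 of 6 had no overlap between the 2 temperatures in every genotype: BGLU15, BGLU25 and BGLU42 on the lower side, where 3.87% of all probe sets stood, and BGLU40 on the higher side, where 3.23% stood. These counts come from the contrasts that chose the members and nothing is read from them. The same holds for the separation of BGLU15, BGLU25 and BGLU40 by temperature across genotypes, whose share over all probe sets was not counted. The median difference of the 6 members was -0.54 in WT, -0.45 in elf3-7 and -0.81 in tfl1-1, beside medians of 0.05, 0.03 and 0.04 over all probe sets. In the WT and elf3-7 comparisons arrays with the same letter deviated together from their group means (correlations of 0.30 to 0.62). The main fit had no term for the letter, so its SEs, intervals and p-values are unpaired. With the letter as a block, 5 members passed the threshold in WT and 4 in elf3-7, against 2 in each without it. The same block took the share of all probe sets called to 13.9% in WT and 12.8% in elf3-7, so more calls were made throughout. In WT each of the 6 fits without 1 array left 1 member past the threshold. In elf3-7 such fits left 0 members without the A or B array at 16 °C or the A or C array at 23 °C, 1 without the C array at 16 °C and 3 without the B array at 23 °C. In tfl1-1, 1 member remained without the A array at 16 °C, 3 without the B array at 16 °C, and 2 without either the A or the B array at 23 °C. Over all probe sets the share called in such fits ran from 1.54% to 6.18% in WT, from 0.919% to 7.09% in elf3-7 and from 2.17% to 19.1% in tfl1-1.

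The order of the 6 group means followed temperature first for every member. It comes from the values that chose the BGLU members, and nothing is read from it. For BGLU15, BGLU25 and BGLU42, the means of elf3-7, WT and tfl1-1 at 16 °C came above those of elf3-7, WT and tfl1-1 at 23 °C. For BGLU15 and BGLU25, only the step between temperatures was free of overlap between neighbours. BGLU40 ran the other way, with tfl1-1, WT and elf3-7 at 23 °C above WT, tfl1-1 and elf3-7 at 16 °C, and again only the step between temperatures separated. In BGLU42 the 1 step without overlap was the last one, from WT at 23 °C (6.97 ± 0.15, SD, n = 3) down to tfl1-1 at 23 °C. Neighbouring groups overlapped throughout for BGLU44, from tfl1-1 at 16 °C (10.21 ± 0.16, SD, n = 3) to tfl1-1 at 23 °C (9.17 ± 0.31, SD, n = 3). They also overlapped throughout for PYK10, from tfl1-1 at 16 °C (12.23 ± 0.06, SD, n = 3) to WT at 23 °C (11.65 ± 0.24, SD, n = 3).

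Once the group means were removed, the deviations of BGLU15 and PYK10 over the 18 arrays gave a Pearson r of 0.78, and 0.47 without the C array of tfl1-1 at 23 °C. Leaving out that array took the r of BGLU15 with BGLU40 from 0.61 to 0.40, that of BGLU25 with PYK10 from 0.61 to 0.47 and that of BGLU40 with PYK10 from 0.20 to -0.30. BGLU15 and BGLU42 gave 0.64, and from 0.55 to 0.72 over all fits without 1 array. These values describe arrays that share their replicate letters, and no test was made.

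The mutants were compared with WT at each temperature. These contrasts did not choose the members, but they use the same arrays and are not independent of the choice. BGLU40, BGLU42 and BGLU44 were called with temperature in tfl1-1 only. The tfl1-1 arrays behind those calls also enter the values of tfl1-1 against WT. No member was called in any of the 4 comparisons by limma with Benjamini-Hochberg adjustment. Of all probe sets, 0.268% were called between elf3-7 and WT at 16 °C, 0.0308% at 23 °C, 0% between tfl1-1 and WT at 16 °C and 0.0352% at 23 °C. At an unadjusted p under 0.05 there was 1 member in the 4 comparisons together, BGLU42 in tfl1-1 at 23 °C. Of all 22746 probe sets, 1547 had such a p in elf3-7 at 16 °C and 1177 at 23 °C. In tfl1-1 the counts were 1717 at 16 °C and 1924 at 23 °C.

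BGLU42 at 23 °C read 6.48, 6.39 and 6.73 in tfl1-1 and 6.80, 7.00 and 7.11 in WT. The 3 mutant arrays lay below the 3 WT arrays, a pattern shared by 6.65% of all probe sets in this comparison. The difference was -0.44 ± 0.15 (SE, 3 arrays in each group), with a 95% interval from -0.77 to -0.11, an unadjusted p of 0.0125 and an adjusted p of 0.482 in limma. It was -0.47 within A and B and -0.38 within C. Fits with array weights, which count noisier arrays less, put it at -0.55 with an adjusted p of 0.0282, but they called 1593 probe sets in this comparison against 8 without weights. At 16 °C the same comparison gave -0.18 with an interval from -0.51 to 0.15, and the arrays overlapped. BGLU42 was called with temperature in tfl1-1 only, and the tfl1-1 arrays at 23 °C behind that call also enter the comparison at 23 °C. The choice of BGLU42 thus favours a low value of tfl1-1 there, and nothing is concluded from the difference at 23 °C.

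In elf3-7, BGLU42 differed from WT by 0.29 at 16 °C (95% interval -0.04 to 0.62, adjusted p = 0.777 in limma) and by 0.27 at 23 °C (-0.06 to 0.60, adjusted p = 0.976). BGLU15 differed by 0.19 at 16 °C and by 0.66 at 23 °C, where the interval ran from -0.30 to 1.61 (adjusted p = 0.978 in limma). That value was 1.04 within A and B and -0.11 within C. PYK10 differed by -0.03 at 16 °C and 0.32 at 23 °C, with an interval at 23 °C from -0.20 to 0.84. BGLU40 was the member with a negative value at both temperatures, -0.29 and -0.26, and intervals that included 0. A doubling of BGLU15 lay inside its interval at 23 °C.

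In tfl1-1 the 95% intervals of the members other than BGLU42 included 0 at both temperatures. BGLU44 differed by 0.24 at 16 °C (95% interval -0.14 to 0.62) and by -0.26 at 23 °C (-0.63 to 0.12). BGLU15 gave -0.35 at 16 °C (-1.30 to 0.60) and -0.13 at 23 °C (-1.08 to 0.82), wide intervals that leave its likeness to WT undecided. In the same order BGLU25 gave -0.02 and -0.06, BGLU40 -0.02 and 0.01, and PYK10 0.05 and 0.07. The PYK10 value at 23 °C joined -0.32 within A and B to 0.84 within C, and the BGLU15 value joined -0.62 to 0.85.

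**Figure D3:**
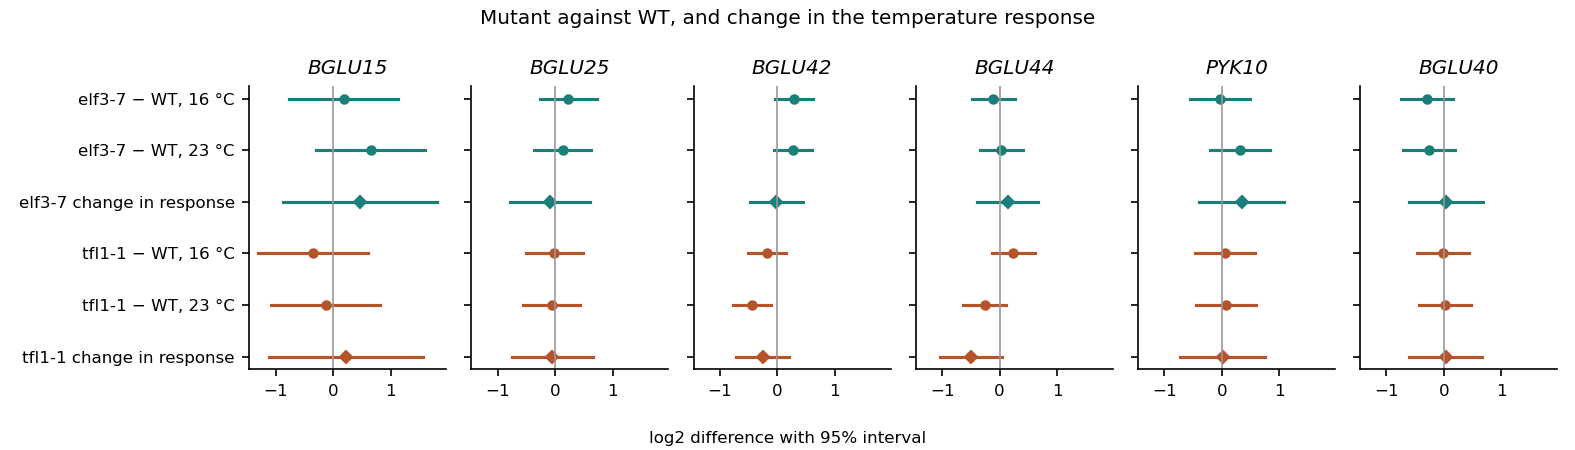
Log2 difference (horizontal axis) between each mutant and WT at 16 °C and 23 °C (circles), and the mutant's change in the 23 °C minus 16 °C response against WT (diamonds), for each member. Lines are 95% intervals of the fit over 3 arrays in each group. The only interval that leaves out 0 is that of BGLU42 in tfl1-1 at 23 °C, from -0.77 to -0.11, and its adjusted p was 0.482 in limma. The choice of BGLU42 favours a low value there.

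Whether the temperature response itself differed between genotypes was tested as the mutant's 23 °C minus 16 °C difference less that of WT. No member was called in limma for either mutant, none had an unadjusted p under 0.05, and 0% of all probe sets were called. Of all 22746 probe sets, 542 had an unadjusted p under 0.05 in elf3-7 and 821 in tfl1-1. The BGLU44 response in tfl1-1 came nearest, at -0.50 with a 95% interval from -1.03 to 0.03 (adjusted p = 1 in limma). It was below 0 within A and B (-0.62) and within C (-0.25). BGLU44 was called with temperature in tfl1-1 only, and that tfl1-1 difference is part of this contrast. The choice of BGLU44 thus favours a larger fall in tfl1-1 than in WT, and nothing is concluded from this value. For BGLU15, the interval of the difference in response ran from -0.88 to 1.81 in elf3-7 and from -1.12 to 1.57 in tfl1-1, so changes of well over a doubling could not be told from 0. The narrowest intervals were those of BGLU42, from -0.48 to 0.45 in elf3-7 and from -0.72 to 0.21 in tfl1-1.

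The annotation named a probe set for 22 of 48 family genes, and the 16 that are not members showed no called difference in any of the 9 comparisons. The family genes called with temperature had been taken as members, so for the temperature comparisons this was fixed in advance. Nothing is read from it, or from the temperature differences of the remaining genes. Of their 144 tests, 9 had an unadjusted p under 0.05. Over all 22746 probe sets, from 542 to 5723 had such a p in each of the 9 comparisons. Of the 16 genes, 10 had a mean under 3.64, the level below which 25% of all probe sets lay, and no member did. Their median temperature difference was -0.02 in WT, -0.07 in elf3-7 and -0.01 in tfl1-1. BGLU28, which sulfur deficiency induces, is the direct neighbour of BGLU15, yet its differences were 0.75 in WT, -0.15 in elf3-7 and 0.03 in tfl1-1. BGLU43, the neighbour of BGLU44, gave -0.02, 0.03 and -0.02 and was among those 10 dim genes. BGLU33 had the largest positive values of the family, 1.20 in WT and 1.13 in elf3-7, beside -0.76 in tfl1-1 (SE 0.53 each, adjusted p from 0.194 to 0.407 in limma). With array weights BGLU33 passed the threshold in WT and in elf3-7, where that setting called 15.6% and 19.4% of all probe sets. Among the mutant comparisons, BGLU19 was 1.33 below WT in elf3-7 at 16 °C on the log2 scale. Its adjusted p was 0.319 in limma, and array weights, which called 2.36% of all probe sets in this comparison against 0.268% without weights, brought it to 0.0274. BGLU33 was 1.18 above WT in tfl1-1 at 16 °C (adjusted p = 0.653 in limma), and its temperature response in tfl1-1 differed from that in WT by -1.96 (adjusted p = 1). BGLU28 in tfl1-1 at 23 °C gave -0.87 against WT (adjusted p = 0.489 in limma), and it passed at 0.0299 without the C array of tfl1-1 and at 0.0498 with array weights. These fits called 3.28% and 7% of all probe sets in this comparison, against 0.0352% in the main fit. BGLU47, one of the enzymes that act on monolignol glucosides, was 1.01 above WT in elf3-7 at 16 °C with an adjusted p of 0.726 in limma.

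**Figure D4:**
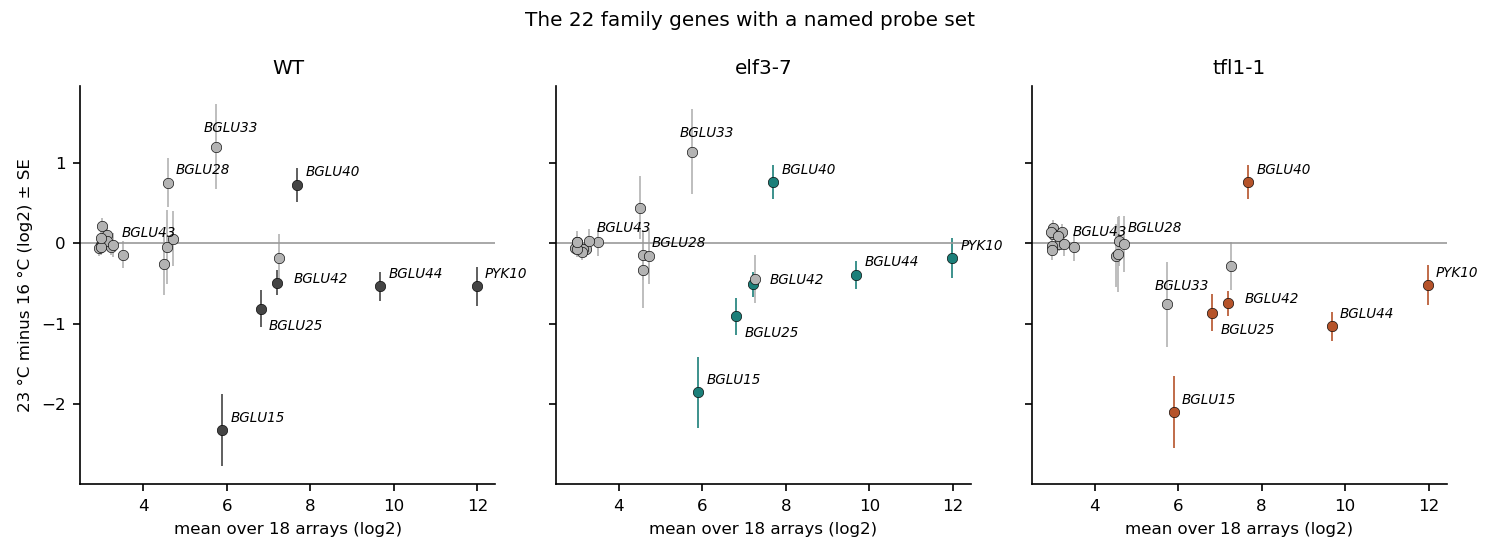
Difference between 23 °C and 16 °C (log2, vertical axis, ± SE) against the mean over 18 arrays (log2, horizontal axis) for the 22 family genes with a named probe set, by genotype. Coloured points are the 6 members and grey points the other 16 family genes. Most grey points lie at low signal near 0, and BGLU33 is the grey point farthest above 0 in WT (1.20) and elf3-7 (1.13). The family genes called with temperature had been taken as members.

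PYK10 works within the ER body system, of which 6 of 14 listed genes besides PYK10 had a named probe set. None was called in any of the 9 comparisons. Of their 54 tests, 5 had an unadjusted p under 0.05, beside 542 to 5723 of all 22746 probe sets in each comparison. NAI1, the transcription factor that switches on PYK10 and ER body formation, gave temperature differences of -0.18 in WT, 0.26 in elf3-7 and 0.10 in tfl1-1. NAI2, an ER body protein, gave -0.36, -0.11 and 0.02. The jacalin-related lectins JAL22, JAL23, JAL33 and JAL34 belong to the complex that PYK10 forms once cells are broken. JAL34 came nearest to the threshold at -0.83 in WT (adjusted p = 0.0711 in limma), with -0.36 in elf3-7 and -0.47 in tfl1-1. With replicate C as a batch block JAL34 passed in WT (adjusted p = 0.0486 in limma), and in tfl1-1 it passed within A and B alone (0.0411) and without the C array at 23 °C (0.0499). Array weights also called JAL34 in both. JAL22 was 1.03 above WT in elf3-7 at 23 °C (adjusted p = 0.792 in limma).

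Coumarin synthesis and release, where BGLU42 acts, was covered by 2 of 10 listed genes. F6'H1 (AT3G13610), the enzyme that makes the precursor of scopoletin, fell by 2.17 at 23 °C in WT (SE 0.61, adjusted p = 0.0462 in limma) and fell by 2.36 in elf3-7 (adjusted p = 0.0395). In tfl1-1 its difference was -1.96 with an adjusted p of 0.0564. On the C arrays of tfl1-1 it read 6.55 at 16 °C and 6.24 at 23 °C, while the A array went from 6.62 to 4.01 and the B array was lower too. Leaving out any 1 array ended the call in WT (adjusted p from 0.0904 to 0.150), and in elf3-7 it was lost in 4 of 6 such fits, those without the A or B array at 16 °C or the A or C array at 23 °C (up to 0.165). Without the C array of tfl1-1 at 23 °C the adjusted p in tfl1-1 was 0.00193, and with replicate C as a batch block it was 0.0390. These fits called 19.1% and 17.7% of all probe sets in tfl1-1, against 9.16% in the main fit. The second gene, AT3G12900, fell by 0.77 in elf3-7 (adjusted p = 0.0428 in limma) and rose by 1.23 in elf3-7 against WT at 16 °C (adjusted p = 0.0170). The first of these calls was lost in all fits without 1 array but the one that left out the C array at 16 °C (up to 0.140), and the second without any 1 of the 3 WT arrays at 16 °C (up to 0.104). The mean of AT3G12900 was 4.03 at 16 °C and 4.06 at 23 °C in WT, and 4.11 and 4.06 in tfl1-1. Its clear fall at 23 °C was thus seen in elf3-7 only.

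Of the flavonol glycoside list, which holds makers of the substrates of BGLU15, 3 of 10 genes had a named probe set. AT1G06000 fell by 1.84 in tfl1-1 (SE 0.50, adjusted p = 0.0343 in limma), where A and B gave -2.63 and C gave -0.25, and its differences in WT and elf3-7 were -1.31 and -1.21 without a call. That call was lost in 5 of 6 fits without 1 array (up to 0.158), each except the one without the C array at 23 °C. The flavonol glycosyltransferases UGT78D1 and UGT78D2 had values from -0.39 to -0.84 over the 3 genotypes and were not called. Without the C array of tfl1-1 at 23 °C both passed in tfl1-1 (adjusted p = 0.0119 and 0.00621 in limma), as they did within A and B alone and with array weights. In that order these fits called 19.1%, 21.8% and 31.2% of all probe sets in tfl1-1, against 9.16% in the main fit. With the fit limited to the arrays compared, the calls of F6'H1 and AT3G12900 in elf3-7, of AT3G12900 against WT and of AT1G06000 were not made. The mannan list was represented by the glucomannan synthase gene CSLA03 alone (0.43, 0.83 and 0.09) and indole glucosinolate synthesis by UGT74B1 alone (0.57, 0.32 and 0.33), neither called.

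PYK10 and BGLU42 are genes of roots, so markers of root and shoot are given beside the members. Of 11 root markers 4 had a named probe set: EXPA7 and EXPA18, expansins of root hairs, PRX72 (AT5G66390), a peroxidase, and AT4G26010. Their mean per array ran from 4.90 to 6.81 in WT at 16 °C and from 3.50 to 4.01 at 23 °C. It ran from 4.65 to 7.49 and from 3.75 to 5.90 in elf3-7, and from 5.66 to 6.24 and from 3.43 to 4.28 in tfl1-1. All 4 had differences below 0 in all 3 genotypes. PRX72 fell by 2.33 in WT (adjusted p = 0.0466 in limma) and by 2.84 in tfl1-1 (adjusted p = 0.0171), calls that were lost in 6 of 6 and in 5 of 6 fits without 1 array (up to 0.142 and 0.0846). In tfl1-1 the call held without the C array at 23 °C and was lost with only the arrays compared. EXPA18 and AT4G26010 were each called in tfl1-1 under 5 alternatives: the batch block, the letter block, A and B alone, array weights and only the arrays compared. In that order these fits called 17.7%, 17.6%, 21.8%, 31.2% and 3.48% of all probe sets. EXPA7 passed in tfl1-1 with array weights (adjusted p = 0.0455 in limma) and with only the arrays compared (0.0477). EXPA18 also passed in WT under the batch block (adjusted p = 0.0494 in limma) and in elf3-7 without the C array at 16 °C (0.0354). The 2 shoot markers with a probe set, RCA and LHCB4.2, averaged between 12.80 and 13.25 on every array and were not called. LHCB4.2 did pass in WT within A and B alone (adjusted p = 0.0418 in limma) and without the C array at 23 °C (0.0384). These fits called 11.4% and 6.18% of all probe sets in WT. In the main fit 1 of 4 root markers was called in WT, 0 in elf3-7 and 1 in tfl1-1. The shares of all probe sets called there were 6.81%, 4.87% and 9.16%. These marker counts stand beside the lower values of BGLU15, BGLU25, BGLU42, BGLU44 and PYK10 at 23 °C. The part of root content in the members' values was not tested.

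**Figure D5:**
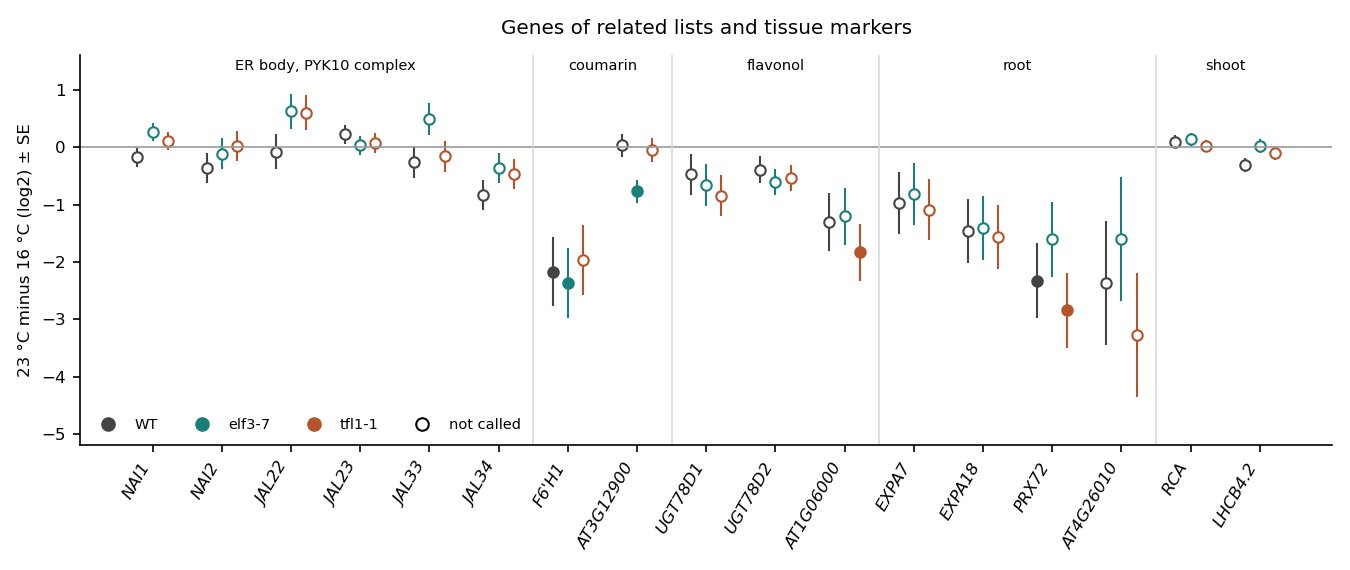
Difference between 23 °C and 16 °C (log2, vertical axis, ± SE) in WT, elf3-7 and tfl1-1 for measured genes of the ER body, coumarin and flavonol lists and for root and shoot markers. Filled circles passed an adjusted p of 0.05 in limma and open circles did not. F6'H1 (-2.17 in WT) and the 4 root markers lie far below 0, while the ER body genes lie on both sides of 0, with JAL34 below it in all 3 genotypes, and the shoot markers lie near 0.

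For each member, the 3 named genes most like it were taken by Pearson r over the 18 arrays, as a description. BGLU15 was nearest to ACLA-2 (r = 0.984), a subunit of ATP-citrate lyase, then TBL39 (0.979) and AT5G62210 (0.979). BGLU25 was nearest to UGT76B1 (0.973), a glycosyltransferase that acts on salicylic acid and isoleucic acid, then AT4G24140 and GSTU25 (both 0.963). BGLU40 was nearest to SEC (0.955), an O-GlcNAc transferase, then AT2G41120 and AT5G60170 (both 0.905). BGLU42 was nearest to AT2G32380 (0.963), then AT1G29980 and AT3G17780 (both 0.960). BGLU44 was nearest to AT4G30660 (0.965), then AT1G05150 (0.939) and AT1G12845 (0.934). PYK10 was nearest to AT3G45710 (0.959), then AT4G29270 and LSH9 (both 0.929). The points share their 2 temperatures and their replicate letters. With group means removed, the r of BGLU15 with ACLA-2 was 0.93, that of BGLU25 with GSTU25 0.96 and that of PYK10 with AT3G45710 0.94. None of the 18 genes found in this way was itself a family member.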

How the data were processed

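The authors deposited 1 table of log2 expression values for 22810 probe sets on 18 arrays, and the submitters' processing notes name RMA. Its version is not given in the sources used here. Values ran from 2.33 to 14.08, with array medians from 5.49 to 5.62, and were not normalized again. After 64 control probe sets were left out, 22746 were tested; 13513 of these name 1 gene, 503 several and 8730 none, from the platform annotation updated through the RefSeq gene table of TAIR10.1 (names and gene order only). The model in limma 3.58.1 (R 4.3.3) had 6 group means over 18 arrays with empirical Bayes moderation, for 9 comparisons, two-sided, adjusted over all probe sets by the Benjamini-Hochberg method and called under 0.05. Arrays have no read depth, so the number of arrays limits the precision. The members, the 8 gene lists and the alternatives were chosen with earlier results of these data known. The text names every member, other family genes with the largest differences or beside a member, called or leading genes of the lists, and the 3 genes most like each member. Replicate letters were taken to pair arrays where the deviations of all 3 same-lettered pairs correlated above 0.1. This held for temperature in WT and elf3-7 and for both mutants against WT at 23 °C. The main model did not use this pairing, and the letter entered only as a block in an alternative fit. The fits were tested on simulated data. Alternatives were a batch or letter block, replicates A and B alone, other scalings, a filter on dim probe sets, array weights, only the arrays compared, and leaving out each array.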

Additional observations from a re-analysis of the deposited data

How the results depend on the processing

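All temperature differences of the members kept their direction under every alternative fit. The 5 BGLU members were chosen on these contrasts, so nothing is concluded from that for them. Within replicate C alone the PYK10 difference was 0.01 in elf3-7 and 0.14 in tfl1-1, against negative values in the fits. The count of members called at 23 °C against 16 °C in WT was 2, and it was 4 with replicate C as a batch block, 5 with the letter as a replicate block, 4 with array weights and 1 in each fit without 1 array. In elf3-7 it was 2, and it was 4 under the batch block, the letter block, equal array medians and array weights, and 0 to 3 without 1 array. In tfl1-1 it was 5, and it was 2 with only the arrays compared and 1 to 5 without 1 array. For tfl1-1 against WT at 23 °C array weights called 1 member, where they called 7% of all probe sets, and the block by letter changed no other count by over 1.5 times. Over all probe sets, WT calls numbered 1549, went from 964 with only the arrays compared to 3546 with array weights, and fell to 351 without the B array at 16 °C. Sign changes occurred in 64 values of 17 genotype or response differences. In the main fit those differences had a size of at most 0.22 and were not called. None of the changed values was called (lowest adjusted p 0.381 in limma). With A and B alone these were -0.28 for the BGLU15 response in tfl1-1, 0.10 for the BGLU42 response in elf3-7, and for PYK10 0.15 in elf3-7 at 16 °C, -0.32 in tfl1-1 at 23 °C and -0.34 for the tfl1-1 response. With array weights the same values were -0.22, 0.0286, 0.16, -0.27 and -0.35, with -0.092 for BGLU40 in tfl1-1 at 23 °C, -0.0535 for its tfl1-1 response and -0.0026 for BGLU44 in elf3-7 at 23 °C. Equal array medians gave -0.001 for the BGLU40 response in elf3-7. Without 1 array, differences from WT at 16 °C ran from -0.0773 to 0.0251 for BGLU25 in tfl1-1, from -0.15 to 0.16 for BGLU40 in tfl1-1 and from -0.14 to 0.18 for PYK10 in elf3-7. At 23 °C they ran in tfl1-1 from -0.79 to 0.35 for BGLU15, -0.25 to 0.10 for BGLU25, -0.18 to 0.22 for BGLU40 and -0.27 to 0.33 for PYK10, and in elf3-7 from -0.0539 to 0.33 for BGLU25 and -0.13 to 0.18 for BGLU44. Responses ran in tfl1-1 from -0.44 to 0.70 for BGLU15, -0.23 to 0.12 for BGLU25, -0.17 to 0.24 for BGLU40 and -0.32 to 0.28 for PYK10, and in elf3-7 from -0.33 to 0.10 for BGLU25, -0.0899 to 0.24 for BGLU40, -0.19 to 0.10 for BGLU42 and -0.0227 to 0.29 for BGLU44. An alternative chosen after seeing the data, the members' correlations without the C array of tfl1-1 at 23 °C, turned the sign for BGLU40 with BGLU42 (-0.0944) and with PYK10 (-0.3026). The cause was not tested.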
